A study of Mus musculus with 8 samples.

Results

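The transcripts of 10 heat shock protein genes (Hspa1a, Hspa1b, Hspa8, Hspa5, Hsph1, Dnajb1, Hspb1, Hspb8, Hspd1 and Hspe1) were examined in mouse forepaw skin after an intradermal injection of PACAP, a neuropeptide that acts on the receptor PAC1R. A gene was taken as a member when a non-control probe of the array carried its name. Probes were found for 9 of the 10 names, as 14 of 39429 probes, among 29608 gene names in all. No probe carried the name Hspa1b. The male mice were 9 to 10 weeks old, all labelled with the strain C57BL/6J, and were either wild type (WT) or carried the receptor deletion (Adcyap1r1-/-, PAC1R KO), with 6 mice per genotype. Under anaesthesia the footpad received 5 μL of vehicle, which was saline with 0.1% bovine serum albumin, or the same vehicle with PACAP at 1e-07 mol/L. Skin was taken after 30 or 60 min. All skin, that given vehicle included, therefore came from anaesthetised and injected mice, and no uninjected skin was measured. Whether PACAP and vehicle were given to the same mice is not stated. The 8 RNA samples (WT and KO, 30 and 60 min, vehicle and PACAP) were hybridised as 4 pairs, PACAP with vehicle, on 8 Agilent arrays that read Cy3 and Cy5. Each pair was run on 2 arrays with the dyes swapped, which hold the same RNA and count as 1 replicate. Which mice entered each RNA sample is not named in the sources used here.

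Heat shock proteins are chaperones, which hold or refold unfolded polypeptides. In the cytosol and nucleus the stress-inducible HSP70 proteins (Hspa1a, Hspa1b) and their constitutive relative (Hspa8) work with a J-domain co-chaperone that stimulates their ATPase (Dnajb1) and a nucleotide exchange factor (Hsph1), and the small heat shock proteins (Hspb1, Hspb8) keep unfolded clients soluble. Hspa5 (BiP) is the HSP70 of the endoplasmic reticulum, while Hspd1 and Hspe1 form the chaperonin and its lid in mitochondria. The cytosolic genes are induced through the transcription factor HSF1, and Hspa5 through the unfolded protein response. In skin Hspb1 is abundant in differentiating keratinocytes, and Hspb1 and Hspb8 are also expressed in muscle.

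The HSP70 probes are shown because they set which transcript each value stands for. The single Hspa1a probe (A_55_P2068459, chr17:35107117-35107176, minus strand, mm9) is listed in the files under the transcripts of both Hspa1a and Hspa1b. Its value can therefore come from either gene or from both, and is called Hspa1a here as in the files. Hspa8 had 3 probes, of which the pair nearest the 5′ end of the transcript gave different ratios and are printed with it. They lie at chr9:40611142-40611201 and, across an intron, at chr9:40612755-40613050, on the plus strand of mm9.
Hspa1a, A_55_P2068459: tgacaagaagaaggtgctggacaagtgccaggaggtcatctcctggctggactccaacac
Hspa8, A_52_P12877: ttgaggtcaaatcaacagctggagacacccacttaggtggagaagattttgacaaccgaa
Hspa8, A_55_P2069721: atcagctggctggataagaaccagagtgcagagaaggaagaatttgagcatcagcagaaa
The longest run of bases that the Hspa1a probe shared with a probe of another member was 9, with the second Hspa8 probe. Only probes were compared and not whole transcripts, so this does not show which transcripts the probe binds. All 14 probes were well above background in all 16 array channels, so no member value rests on a dim spot.

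The upstream sequences of members that stand for the different routes of induction were read from RefSeq (GRCm38.p6), as the 250 bases before the annotated start. An entry was found for 9 members, all but Hspa8, with 12 windows. The letters GAANNTTC and TTCNNGAA, pairs of the heat shock element to which HSF1 binds, were searched on both strands, on which each reads the same. Either pair was found for 6 members (Hspa1a, Hspa1b, Hsph1, Hspb1, Hspd1 and Hspe1), and in 12.8% of the 32851 windows of all genes. In the Hspa1a window (chr17:34972157-34972406, minus strand) the pair lies 96 bases before the start and is in capitals.
Hspa1a: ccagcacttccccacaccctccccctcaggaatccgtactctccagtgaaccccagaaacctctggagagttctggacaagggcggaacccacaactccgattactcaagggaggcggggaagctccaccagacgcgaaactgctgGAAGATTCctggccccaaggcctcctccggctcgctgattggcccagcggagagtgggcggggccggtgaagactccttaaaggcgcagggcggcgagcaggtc
The Hspa1b window was identical to it at 247 of 250 bases. The longer form of 3 units, GAANNTTCNNGAA, which contains both pairs and was also searched on both strands, was found for Hspd1 and Hspe1 and in 0.466% of all windows. The window of another Hspd1 start held neither a pair nor this form. Hspd1 and Hspe1 lie head to head, with a start of Hspd1 216 bases from that of Hspe1. They share the stretch shown here (chr1:55088048-55088077, plus strand), in which the capitals mark 3 overlapping pairs.
Hspe1 and Hspd1: gccacggtccgTTCTAGAACCTTCCGGAAg
Hspa5 held the endoplasmic reticulum stress response element, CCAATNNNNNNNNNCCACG, which was found for no other member and in 0.113% of all windows. It lies 46 bases before the start and is in capitals in the window chr2:34771840-34772089 on the plus strand.
Hspa5: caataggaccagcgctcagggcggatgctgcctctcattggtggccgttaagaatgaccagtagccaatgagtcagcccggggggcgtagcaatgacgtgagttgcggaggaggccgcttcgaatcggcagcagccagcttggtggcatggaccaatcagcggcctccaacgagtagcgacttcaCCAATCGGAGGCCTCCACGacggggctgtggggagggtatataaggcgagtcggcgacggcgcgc
The cAMP response element TGACGTCA, searched because PACAP receptors signal through cAMP, was in no window of a member and in 1.55% of all windows. Only these exact letters were searched, so near matches, such as tgacgtga in the Hspa5 window, were not counted. A match of letters is a description and not a measured binding site.

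On each array 43020 spots were not controls. The red signal stood well above background at 78.6% to 94.5% of them and the green signal at 54.0% to 65.3%. Each condition was 1 RNA sample, read on 2 arrays. WT and KO samples were hybridised on separate slides, which means that the effects of slide and genotype cannot be told apart. Across 23072 genes the log ratios of both arrays of a pair, turned to PACAP over vehicle, had a Pearson r between -0.38 and -0.04. Across all genes the arrays of a pair therefore did not share their ratios. Genes are not independent replicates and no test was made on these coefficients. The keratinocyte markers expected in skin were all measured, with 6 of 6 tested, and muscle markers were measured as well (8 of 8). Adcyap1r1, the deleted gene, was lower in the KO than in the WT sample in 4 of 4 matched samples (log2 intensity 7.91 to 8.56 against 8.27 to 8.76, which overlap). Where its probe lies relative to the deleted part is not given, so it checks little.

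None of the 9 measured heat shock protein genes was up- or down-regulated by PACAP in any comparison. The 36 mean ratios of PACAP over vehicle lay between 0.721-fold and 1.34-fold, all within 1.5-fold. A gene was counted as changed when the mean of both arrays was at least 2.0-fold or at most 0.5-fold, and both arrays gave the same side of 1 and a p below 0.01 by the Feature Extraction software. In all genes this rule called 0.378% in WT mice at 30 min, 0.784% in KO mice at 30 min, 0.763% in WT mice at 60 min and 0.338% in KO mice at 60 min, so that 0 of 9 members in each comparison is close to the background. Both arrays gave the members the same direction in 32 of 36 cases. The share of all genes with the same direction on both arrays was not taken, so this count has no background beside it. The p of Feature Extraction, which speaks of 1 array and not of mice, was below 0.01 on 1 array in 2 of 56 probe values and on both arrays in 0.

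**Figure D1:**
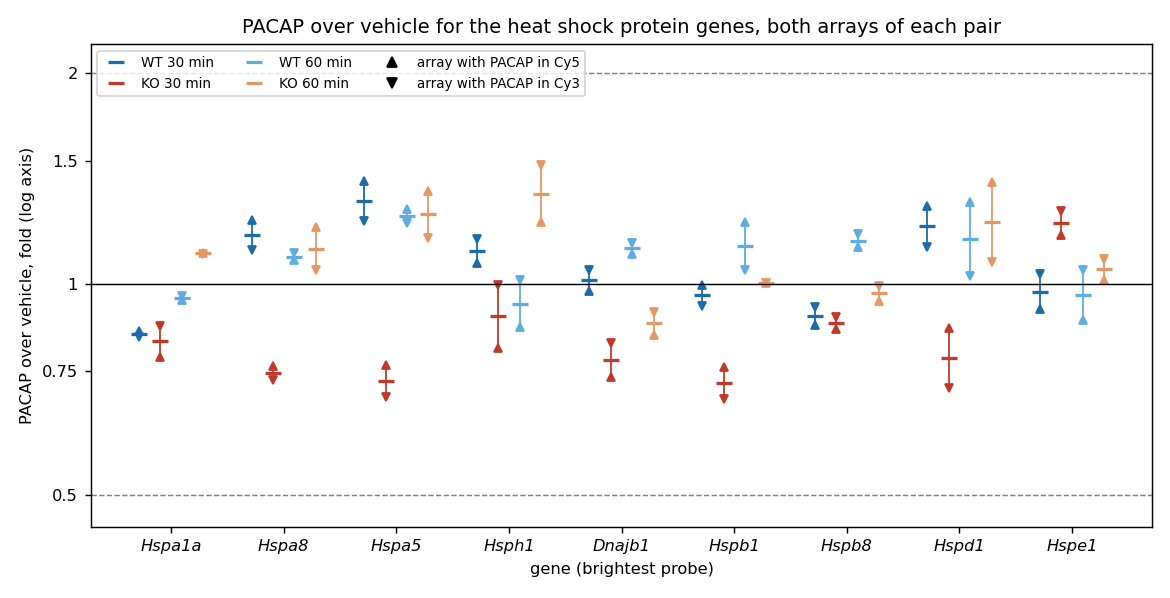
PACAP over vehicle as fold on a log axis for the brightest probe of the 9 measured genes in the 4 comparisons (colours). Triangles are the 2 arrays of each pair, which hold the same RNA with swapped dyes, the horizontal mark is their mean and the dashed lines are the 2.0-fold and 0.5-fold thresholds. No mean lies outside 0.721 to 1.34, and 8 of 9 genes lie below 1 on both arrays in KO mice at 30 min.

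Among the cytosolic HSP70 genes, Hspa1a, the classical stress-inducible member, lay at 0.857-fold with PACAP in Cy5 and 0.839-fold with PACAP in Cy3 in WT mice at 30 min. It was at 0.787 and 0.872 in KO mice at 30 min, 0.948 and 0.961 in WT mice at 60 min, and 1.11 on average in KO mice at 60 min. Thus both arrays of every pair gave the same side of 1, below it in 3 comparisons and above it in KO mice at 60 min. Of all genes, 40.7% had a ratio at least as far from 1 in WT mice at 30 min. Hspa8, the constitutive HSP70, was read by 3 probes. Its brightest probe was at 1.17-fold in WT mice and 0.746-fold in KO mice at 30 min, and at 1.09-fold and 1.12-fold at 60 min. The values for WT and KO mice at 30 min thus lay on opposite sides of 1.

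The Hspa8 probes disagreed in KO mice at 30 min. The 5′ probe (A_52_P12877) gave 1.03 and 1.25 on its arrays, whereas the second probe gave 0.729 and 0.824 and the brightest, most 3′ probe (A_55_P2080603) gave 0.763 and 0.729. The mean log2 ratio at the 5′ probe was higher than at these probes by 0.54 and 0.60. In WT mice at 30 min the same difference was -0.30 and -0.26, and at 60 min it lay between -0.24 and 0.01. With the mean over its probes in place of the brightest, Hspa8 was at 0.868-fold in KO mice at 30 min.

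**Figure D2:**
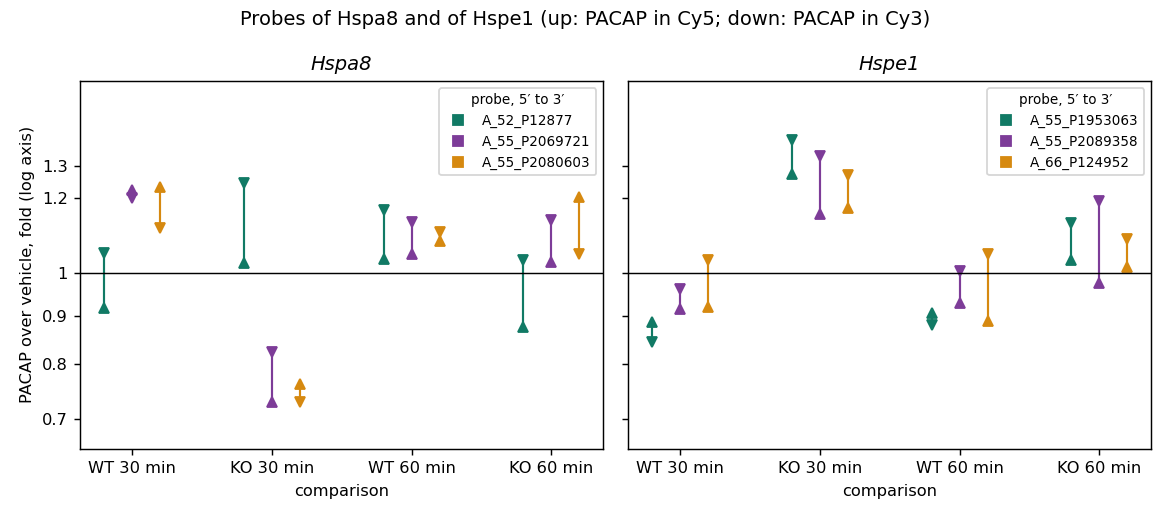
PACAP over vehicle as fold on a log axis for each probe of Hspa8 and Hspe1 in the 4 comparisons, ordered from the 5′ to the 3′ end of the transcript (colours), with both arrays as triangles. In KO mice at 30 min the 5′ probe of Hspa8 lies above 1 and its other probes below 1, while all 3 probes of Hspe1 lie above 1.

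Hspa5, the chaperone of the endoplasmic reticulum, had the mean ratios farthest above 1 in WT mice at both times. It was at 1.40 and 1.23 in WT mice at 30 min and at 1.28 and 1.22 in WT mice at 60 min. In KO mice it was at 0.765 and 0.690 at 30 min and at 1.36 and 1.16 at 60 min. The comparison of KO mice at 30 min was therefore the only one below 1, by a distance that 16.7% of all genes reached or passed.

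The co-chaperones did not follow the same order. Dnajb1, which delivers clients to HSP70, was at 0.978 and 1.05 in WT mice and at 0.735 and 0.823 in KO mice at 30 min. At 60 min it was at 0.846 and 0.912 in KO mice, with a mean of 1.12-fold in WT mice. Both KO comparisons were below 1 on both arrays, and the WT comparisons were not. Hsph1, the nucleotide exchange factor, had its highest ratio in KO mice at 60 min, with 1.23 and 1.48 by its brightest probe. This was the highest mean of any member, 1.34-fold, and 5.35% of all genes were at least as far from 1. The other 3 Hsph1 means lay between 0.899 and 1.11.

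Of the small heat shock proteins, Hspb1 was at 0.995 and 0.931 in WT mice at 30 min and at 0.761 and 0.684 in KO mice at 30 min. The latter mean of 0.721-fold was the lowest of any member, and its p on the array with PACAP in Cy3 was 0.00919. At 60 min Hspb1 was at 1.22 and 1.05 in WT mice and at 1.00 on both arrays in KO mice. Hspb8, which acts with a BAG co-chaperone in the autophagic removal of unfolded proteins, lay between 0.879-fold and 1.15-fold in all comparisons.

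The mitochondrial partners Hspd1 and Hspe1, although they share the upstream region printed above, lay on opposite sides of 1 in KO mice at 30 min. There Hspd1 was at 0.865 and 0.711, and Hspe1 at 1.17 and 1.27 by its brightest probe. All 3 probes of Hspe1 lay above 1 on both arrays, between 1.15 and 1.38. In the WT mice at 30 min Hspd1 was at 1.29 and 1.13, and Hspe1 at 0.920 and 1.03. At 60 min Hspd1 had a mean of 1.16-fold in WT mice and Hspe1 one of 0.964-fold, and the KO means were 1.22-fold for Hspd1 and 1.05-fold for Hspe1.

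In KO mice at 30 min 8 of the 9 genes were thus below 1 on both arrays, against 35.2% of all genes, with a median log2 ratio of -0.35 against -0.01 for all genes. In WT mice at 30 min 3 of 9 were below 1 on both arrays (28.5% of all genes) with a median of 0.02, and at 60 min the medians were 0.17 in WT and 0.15 in KO mice. These counts describe 1 pair of RNA samples each, and the members were chosen with earlier results of these data known. In the same KO pair at 30 min markers of several cell types moved. Skeletal muscle markers had a median log2 ratio of -0.89 with 7 of 8 below 0, and the muscle genes Acta1 and Myh4 were down-regulated. Keratinocyte markers had a median of -0.79 with 6 of 6 below 0, and Krt10 and Krt1, keratins of differentiated epidermis, were down-regulated. Fibroblast markers had a median of -0.58 with 5 of 5 below 0, and 4 of 4 hair keratins were up-regulated. In WT mice at 30 min the muscle median was 0.77, with 8 of 8 above 0, and Myh4 and Myh2 were up-regulated. The fibroblast median there was 0.57, with 5 of 5 above 0. The hair keratin median was 0.79, with 4 of 4 above 0 and Krt35 up-regulated. In WT mice at 60 min 4 of 4 hair keratins were up-regulated as well (median 2.45), and 4 of 5 hepatocyte markers were down-regulated (median -2.31 over the 4 above background), whereas no marker was called in KO mice at 60 min. In bulk skin fewer cells of a type and less RNA per cell cannot be told apart, and the part of these cell types in the ratios of the heat shock protein genes was not tested. The summed log2 level of the muscle markers ranged from 15.8 to 16.5 in vehicle and from 15.5 to 16.7 in PACAP samples, and that of the keratinocyte markers from 17.7 to 18.2 and from 17.4 to 18.0.

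**Figure D3:**
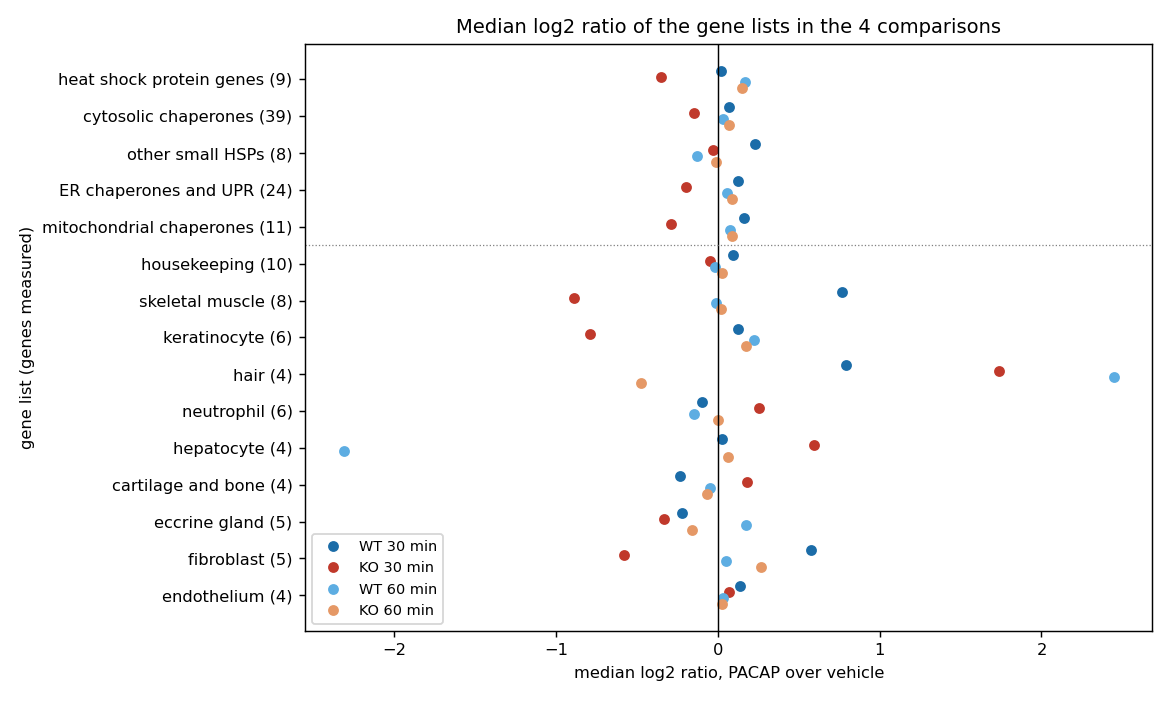
Median log2 ratio of PACAP over vehicle in each of the 4 comparisons (colours) for the heat shock protein genes and other gene lists. These lists are related chaperones (above the dotted line), housekeeping genes and cell type markers. Numbers in brackets, labelled as measured, are the genes tested in the ratio fits. The median of the heat shock protein genes in KO mice at 30 min was -0.35, beside -0.89 for skeletal muscle and -0.79 for keratinocyte markers.

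Across the 4 comparisons the effect of PACAP on the members was not distinguishable from 0. With limma, fitted on 30351 probes over the 4 pairs, 0 of 9 members passed an adjusted p of 0.05 in the mean effect, in KO against WT or in 60 against 30 min. In the whole fit 0 probes passed in any of these (0% called), with 678, 972 and 483 at an unadjusted p under 0.05, and no member was among the latter. The mean effect was highest for Hspa5, at a log2 ratio of 0.15 (SE 0.16, n = 4 pairs, limma adjusted p = 1), and lowest for Hspa1a, at -0.11 (SE 0.10, limma adjusted p = 1). Leaving out one pair at a time moved these values over 0.064 to 0.35 and -0.19 to -0.053, the outer values being those without KO mice at 30 min for Hspa5 and without KO mice at 60 min for Hspa1a. The 95% intervals of the 9 genes reached from 0.766-fold to 1.45-fold, so a change of 2.0-fold common to all 4 comparisons lay outside the interval of every member. The difference of KO from WT was less closely bounded, with intervals from 0.452-fold to 1.68-fold. The most negative estimate was that of Hspa5, -0.42 (SE 0.30, limma adjusted p = 0.839), and the most positive that of Hspe1, 0.22 (SE 0.20, limma adjusted p = 0.839). Without the pair of KO mice at 30 min they were -0.028 and 0.11, and without that of KO mice at 60 min -0.82 and 0.33. For 60 against 30 min the intervals reached from 0.627-fold to 2.23-fold, with the highest estimate for Hspa5, 0.36 (SE 0.32, limma adjusted p = 1), which was -0.068 without KO mice at 30 min and 0.79 without WT mice at 30 min.

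**Figure D4:**
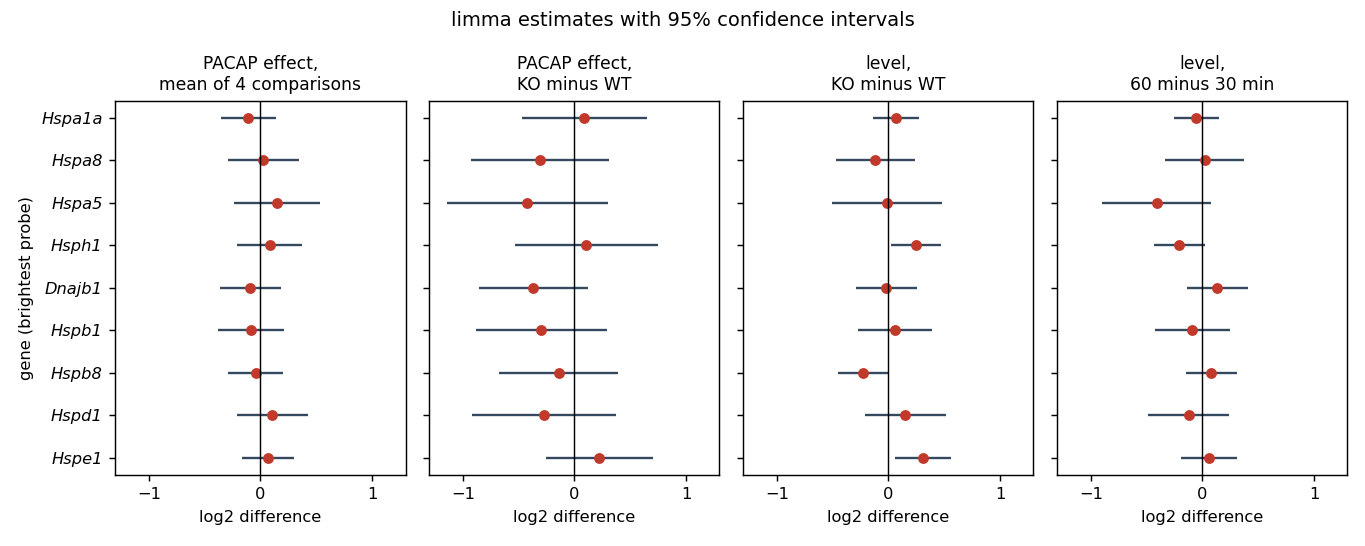
limma estimates (points) with 95% confidence intervals (lines) on the log2 scale for the 9 genes, over 4 pairs for the effects of PACAP and over 8 RNA samples for the levels. All intervals include 0 apart from those of Hsph1 and Hspe1 for the level in KO against WT, whose adjusted p-values were 0.166 and 0.131.

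The levels in the 8 RNA samples are log2 intensities of 1 probe each, so they can be compared between samples and not between genes. Hspa1a varied least, from 9.87 in the PACAP sample of WT mice at 30 min to 10.19 in the vehicle sample of KO mice at 30 min, a range of 1.25-fold. In vehicle and PACAP samples it was at 10.04 and 9.87 in WT and at 10.19 and 9.95 in KO mice at 30 min, and at 9.97 and 9.92 in WT and at 9.91 and 10.04 in KO mice at 60 min. No genotype or time stood apart. The highest sample lay 0.15 above its neighbour, other neighbours were at most 0.07 apart, and the median difference between both arrays of a sample was 0.03. Among all genes the median range over the 8 samples was 0.48 on the log2 scale, and 1 of the 9 members, Hspa1a, had a range below it.

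Hspa5 varied most, over 2.03-fold. In vehicle and PACAP samples it was at 13.45 and 13.84 in WT and at 13.59 and 13.15 in KO mice at 30 min, and at 12.82 and 13.13 in WT and at 13.03 and 13.41 in KO mice at 60 min. The lowest samples were those of vehicle at 60 min in both genotypes, and the samples of both times overlapped. The median difference between both arrays of a sample, which hold the same RNA, was 0.06. The level at 60 against 30 min differed by -0.41 (SE 0.20, n = 8 RNA samples, limma adjusted p = 0.229), or by -0.15 without either WT pair and -0.67 without either KO pair.

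Hspe1 was higher in each KO sample than in every WT sample. In vehicle and PACAP samples of WT mice it was at 12.75 and 12.71 at 30 min and at 12.99 and 12.89 at 60 min. In those of KO mice it was at 13.04 and 13.34, then at 13.07 and 13.13. The same held at its other probes. The lowest KO and highest WT samples were 0.05 apart, less than the median difference of 0.13 between arrays. The level in KO against WT differed by 0.31 (SE 0.10, limma adjusted p = 0.131), or by 0.16 without either pair at 30 min and 0.46 without either pair at 60 min. Hspb8 was the reverse, with 13.84 and 13.68 in WT and 13.49 and 13.32 in KO mice at 30 min, and 13.63 and 13.79 in WT and 13.62 and 13.60 in KO mice at 60 min. Its groups were separated by 0.0052, and KO differed from WT by -0.22 (SE 0.09, limma adjusted p = 0.196), or by -0.096 and -0.35 with the same pairs left out. Levels of 17% of all genes did not overlap between genotypes, so that 2 of 9 members is close to the background.

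Hsph1 was at 9.54 and 9.68 in WT and at 9.97 and 9.87 in KO mice at 30 min, and at 9.46 and 9.46 in WT and at 9.48 and 9.83 in KO mice at 60 min, in vehicle and PACAP samples. The 3 highest samples were KO samples, whereas the vehicle sample of KO mice at 60 min lay among the WT samples. KO differed from WT by 0.25 (SE 0.09, limma adjusted p = 0.166), and 60 from 30 min by -0.21 (SE 0.09, limma adjusted p = 0.198). The remaining genes, Hspa8, Dnajb1, Hspb1 and Hspd1, varied over 0.51 to 0.58 on the log2 scale. Hspa8 and Dnajb1 had their lowest level in the PACAP sample of KO mice at 30 min, and Hspb1 and Hspd1 in the vehicle sample of WT mice at 60 min.

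**Figure D5:**
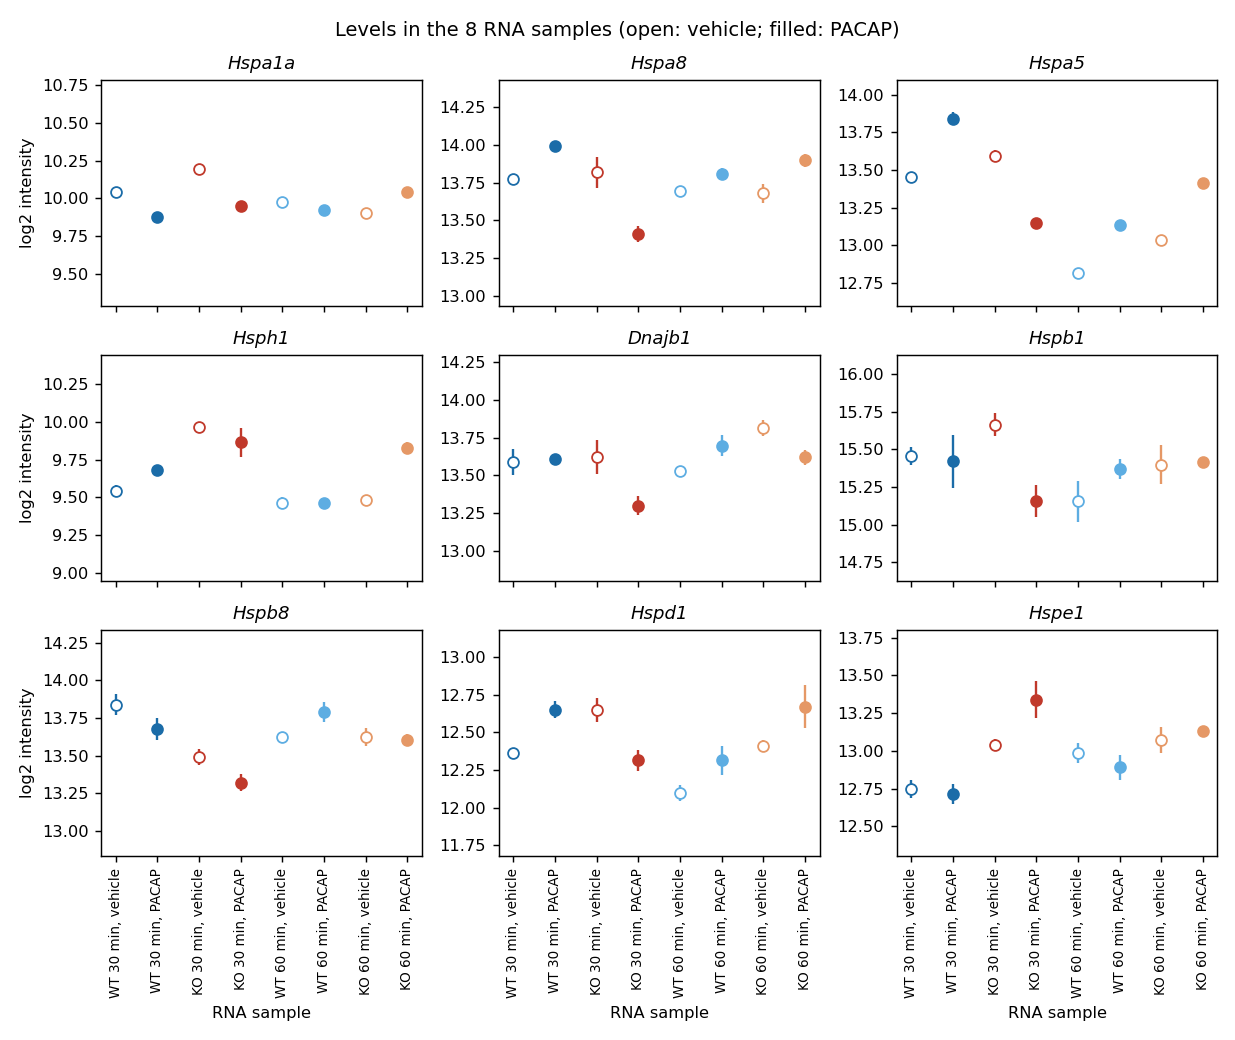
Level of the brightest probe of each gene as log2 intensity in the 8 RNA samples, open for vehicle and filled for PACAP, with colours for genotype and time. Points are means of both arrays and lines join the 2 arrays; each panel spans the same 1.5 log2 units. Hspa5 has the widest range (12.82 to 13.84) and Hspa1a the narrowest (9.87 to 10.19).

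By limma on the 8 RNA samples, with genotype, time and treatment as terms and the hybridised pair as a random block, 0 of 9 members passed for KO against WT (3.43% of 26354 probes called), for 60 against 30 min (10.8% called) or for PACAP against vehicle (0% called, 459 probes at an unadjusted p under 0.05). At an unadjusted p under 0.05 there were 2, 0 and 0 members, beside 26.4%, 30.7% and 1.74% of all probes. A fit that took the mean of each pair as 1 value, added after the data were seen, called 0 probes for both contrasts, with 3317 and 4940 at an unadjusted p under 0.05. Without the pair of KO mice at 30 min the fit called 3 members for 60 against 30 min, Hspa5 (-0.67), Hspd1 (-0.30) and Hspe1 (0.21), and 2 for KO against WT, Hspd1 (0.33) and Hspa5 (0.25), where 40.4% and 10.4% of all probes were called. With 3 pairs left that fit has no spread between pairs beyond genotype and time, and its p rests on the spread within pairs. Of the 14 probes, the 5′ probe of Hspa8 passed in the full fit, at 60 against 30 min. Its levels were 10.43 to 10.96 at 30 min and 11.07 to 11.26 at 60 min, with a difference of 0.42 (SE 0.09, limma adjusted p = 0.0423). It was 0.24 without either KO pair and 0.59 without either WT pair, and the call was lost without any pair other than KO mice at 30 min. At the other Hspa8 probes the difference was 0.13 and 0.02 (limma adjusted p = 0.598 and 0.946). Levels of 21.6% of all genes did not overlap between times.

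The genes that work with the members were taken from 4 lists of 82 genes, all of them measured, which hold other cytosolic chaperones and genes linked to HSF1 (39), other small heat shock proteins (8), endoplasmic reticulum chaperones and genes of the unfolded protein response (24), and mitochondrial chaperones and proteases (11). None of the 82 was up- or down-regulated by PACAP in any comparison, against the shares of all genes given above. In KO mice at 30 min the medians were -0.15, -0.03, -0.20 and -0.29 in this order, with 30 of 39, 4 of 8, 16 of 24 and 8 of 11 genes below 0. In WT mice at 30 min they were 0.07, 0.23, 0.12 and 0.16. Hsf1 itself lay at 1.06-fold in WT mice and 0.911-fold in KO mice at 30 min, and at 0.923-fold and 1.08-fold at 60 min.

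In the levels, the fit of the 8 RNA samples called 3 of these 82 genes for KO against WT and 7 for 60 against 30 min, beside 3.43% and 10.8% of all probes. In KO mice Pdia6, a protein disulfide isomerase, was higher by 0.33 (SE 0.05, limma adjusted p = 0.0432). Pdia4, of the same family, was lower (log2 difference -0.63), as was Hspa2, an HSP70 gene best known from the testis (-0.46). At 60 min Atf3, an immediate early transcription factor of the stress response, was higher by 1.26 (SE 0.21, limma adjusted p = 0.0270). Cryaa, a small heat shock protein known from the lens, was higher by 0.62, Bag4 by 0.29 and Fkbp4, an HSP90 co-chaperone, by 0.23. The genes lower at 60 min were Hspa2 (-0.41), Stip1, which links HSP70 to HSP90 (-0.35), and Eif2ak3, the kinase PERK of the unfolded protein response (-0.34). In the fit of pair means their adjusted p-values lay between 0.208 and 0.395, so none was called there. With one pair left out each of these calls was lost except without KO mice at 30 min, and the difference of Cryaa was 0.40 without either KO pair. With Feature Extraction signals centred on the 75th percentile 7 of these 10 calls were lost (limma adjusted p = 0.0690 to 0.278), all but those of Atf3, Cryaa and Pdia4. Among probes well above background in every channel 5 were lost, those of Bag4, Eif2ak3, Fkbp4, Pdia6 and Stip1 (limma adjusted p = 0.0521 to 0.0830). Of the lists of other cell types and housekeeping genes, 3 genes passed, all at 60 against 30 min. The cartilage and bone genes Acan and Ibsp were higher, by 0.45 and 0.93, and Foxa1 of the eccrine gland list was lower (-0.34). None of the 10 housekeeping genes passed in any of these fits.

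The genes whose levels followed Hspa1a most closely over the 8 RNA samples were sought among 2913 probes that were well above background in every channel and had an SD of at least 0.3. They were Cdca8 (Pearson r = 0.71), Prg4 (0.66), Eif3a (0.61), Mycbp2 (0.58) and Khdrbs1 (0.57). The SD of Hspa1a itself was 0.10, the samples share arrays in pairs, and the coefficients are a description only.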

How the data were processed

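The authors labelled total RNA with Cy3 or Cy5, hybridised it to Agilent 4 × 44K mouse arrays and extracted the scans with Agilent Feature Extraction. Its version is 12.0.3.1 in the file headers and 11.0.1.1 in the submitters' processing notes, and the paper's methods name another, lower version. The log10 ratios (red over green) deposited for each spot had been background-corrected and LOWESS-normalized by the authors' software, which set 13.4% to 25.0% of them per array to 0. The deposited p-value of a spot comes from the software's error models and speaks of 1 array. The deposited intensity values are mean, background and processed signals per channel. The series matrix equals the log10 ratio of the processed signals within 5e-10 and served as an alternative.

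Control spots and 198 to 342 outlier spots per array were left out, and 0 spots were saturated. Ratios were turned to PACAP over vehicle by the dye named in the labels, and averaged over spots and then over both arrays. A gene is read by its brightest probe. The counting rule was a mean of 2.0-fold or 0.5-fold, the same direction and p below 0.01 on both arrays. Levels are log2 intensities after normexp (offset 50), loess and Aquantile, averaged over the dye swap. limma 3.58.1 in R 4.3.3 (lmFit, eBayes, Benjamini-Hochberg over all probes tested) was fitted to the 4 pair ratios, for the 30351 probes with a signal well above background, in 1 channel or both, on each of the arrays, and to the 8 levels, for 26354 probes well above background on both arrays of at least 1 RNA sample. The level fit took the hybridised pair as a random block (consensus correlation 0.18). With 4 pairs, genotype and time leave little spread between pairs, and on simulated data this fit called too many unchanged probes for both, so its calls are given beside a fit of pair means. The ratio fits, tested likewise, made few false calls. The counting rule was simulated with noise scaled to the difference between both arrays of a pair and drawn independently for each array. Unchanged probes were then called in numbers of the same order as its calls in the data. Across genes the real arrays of a pair were negatively correlated, unlike the simulated ones, so the simulation cannot give the rate of false calls. With 1 pair of RNA samples per comparison, the calls of this rule are a description. The p-values measure the spread between these RNA samples, which may be technical. In the ratio fits this spread also holds differences by genotype and time. There the mean effect was fitted without either term, and each contrast without the other.

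Members, related lists and tests were chosen with earlier results of these data known. Named genes are the members, Hsf1, Adcyap1r1, related genes past a threshold, and the 5 genes most like Hspa1a. Probe coordinates are mm9, as in the files, and upstream sequences are GRCm38.p6. Alternatives were other sources of ratios and levels, centring, outlier spots kept, p and fold thresholds, probe choice, filters on dim probes, covariates, no block, and each array or pair left out. Python 3.11.15 with numpy 2.4.6, pandas 2.3.3 and matplotlib 3.10.9 was used.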

Additional observations from a re-analysis of the deposited data

Results flagged for a closer look

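For 3 genes both comparisons of one genotype or time lay on one side of 1 and both of the other on the opposite side, against 18.6% of all genes, so that 3 of 9 members is not set apart from the background. For Dnajb1 the mean ratios of PACAP over vehicle in WT mice were 1.01-fold at 30 min and 1.12-fold at 60 min, those in KO mice 0.778-fold and 0.879-fold, and the difference of KO from WT was -0.37 on the log2 scale (SE 0.20, n = 4 pairs, limma adjusted p = 0.839). For Hspe1 they were 0.974-fold and 0.964-fold in WT and 1.22-fold and 1.05-fold in KO mice, with a difference of 0.22 (SE 0.20, limma adjusted p = 0.839). For Hspb1 the mean ratios at 30 min were 0.963-fold (WT) and 0.721-fold (KO), and those at 60 min 1.13-fold (WT) and 1.00-fold (KO), with a difference of 60 from 30 min of 0.35 (SE 0.24, limma adjusted p = 1). None of these differences passed the test, and the WT ratio of Dnajb1 at 30 min and both WT ratios of Hspe1 lay on opposite sides of 1 on their 2 arrays. With one pair left out the differences ranged from -0.45 to -0.28, from 0.11 to 0.33 and from 0.15 to 0.56. Samples that stand apart within a group were not sought, since each combination of genotype, time and treatment holds 1 RNA sample.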

How the results depend on the processing

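By replicate number, no paired analysis was possible because that number names the dye orientation of the same RNA samples. The pairing of PACAP with vehicle by hybridisation is part of the ratios and of the block of the level fit. Under all alternatives run 0 members were called for PACAP over vehicle in each comparison and in the 3 limma fits of the ratios. The stricter p threshold and the fold threshold on each array could only have removed calls. With time as a covariate, the ratio fit for KO against WT called 16 of 30351 probes up and 1 down. With genotype as a covariate, that for 60 against 30 min called 1 up and 1 down. With one pair left out the count of members called ranged from 0 to 3 for the level at 60 against 30 min and from 0 to 2 for KO against WT, in each case through the pair of KO mice at 30 min, without which 40.4% and 10.4% of all probes were called. Leaving out one pair, the log2 difference ranged from -0.068 to 0.79 for the effect of PACAP on Hspa5 at 60 against 30 min, from -0.30 to 0.058 for the level of Hspd1 and from -0.088 to 0.21 for that of Hspe1 at 60 against 30 min, and from -0.27 to 0.25 for the level of Hspa5 and from -0.027 to 0.33 for that of Hspd1 in KO against WT. With Feature Extraction signals centred on the 75th percentile the level of Hspa5 in KO against WT was 0.13 rather than -0.01. Of 54 member differences over the limma fits 29 changed sign under some alternative, 17 of them without KO mice at 30 min and 4 under an alternative other than leaving out a pair, and the cause was not tested. The 5′ Hspa8 probe was no longer called among probes well above background in every channel, in the fit of pair means and without any pair other than KO 30 min. Of the 36 member folds 5 moved by more than the spread between arrays, none of them across 1. A further 4 changed side of 1 on one array alone, namely Hsph1 in WT mice at 60 min (1.01), Dnajb1 in WT mice at 30 min (0.978) and Hspe1 in WT mice at 30 min (1.03) and 60 min (1.05), and the first of these also with normexp and loess ratios (1.00). All member probes were well above background in every channel.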
